A study of Rattus norvegicus with 4 samples.

Results

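The genes described here are the oxygen sensing and hypoxia target genes Hif1a, Epas1, Egln1, Egln3, Vegfa, Adm, Slc2a1, P4ha1, Bnip3 and Ndrg1. They were chosen by gene name, and every non-control probe of the arrays that carried 1 of these 10 names was taken. This gave 13 probes on 31 spots, out of 30367 probes on 42877 spots that carried 26456 gene or transcript names. All 13 were bright enough to be tested, along with 22967 probes in all. Vegfa had 4 probes and each of the other genes had 1. The RNA came from isolated pancreatic islets of 14-day-old Sprague Dawley rat pups (postnatal day 14). Intrauterine growth restriction (IUGR) was represented by 4 samples, from litters whose dams had both uterine arteries tied off surgically at embryonic day 18, and the 4 control samples were from dams that had a sham operation. Each array compared 1 IUGR sample with 1 control sample in 2 colours, and there were 4 arrays on 1 slide. The labels do not say whether a sample was 1 pup or a pool, nor give the sex or the litter, so a p-value here measures only the spread between these samples.

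Hypoxia-inducible factors (HIF) are the transcription factors through which animal cells answer low oxygen. Their alpha subunits, encoded by Hif1a and Epas1, are made all the time, but while oxygen is present the prolyl hydroxylases of the Egln family mark them and the von Hippel-Lindau protein then sends them to the proteasome. When oxygen is scarce the alpha subunits stay, pair with Arnt and switch on genes for blood vessel growth, glucose uptake, glycolysis and collagen processing. Most of this control acts on the alpha subunit protein, and the arrays measured RNA alone. In the islet, beta cells are a main source of VEGF-A, which maintains the dense islet capillaries.

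Probe sequences on which the results turn are shown because the 4 Vegfa probes did not give the same ratio, and because Hif1a and P4ha1 rest on a single probe each. All are 60 bases long and are in the orientation given by the scanner files. The coordinates are those of the files on the rat assembly rn4, and no annotation of that assembly was used here. The middle Vegfa probes lie on the plus strand of chromosome 9, at chr9:10528551-10528610 for A_64_P099891 and at chr9:10531972-10532031 for A_64_P155983. The Hif1a probe lies at chr6:96462636-96462695 on the plus strand. It ends in TGA, in capitals below, a stop triplet of a reading frame with no earlier stop. The P4ha1 probe spans chrUn:15080990-15084513 on the minus strand, so its 60 bases bridge an intron.
Vegfa A_64_P099891: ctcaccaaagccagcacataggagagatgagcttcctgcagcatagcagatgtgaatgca
Vegfa A_64_P155983: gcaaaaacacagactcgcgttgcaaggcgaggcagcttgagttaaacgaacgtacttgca
Hif1a A_64_P081874: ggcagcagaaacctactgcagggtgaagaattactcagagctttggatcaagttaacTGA
P4ha1 A_44_P412170: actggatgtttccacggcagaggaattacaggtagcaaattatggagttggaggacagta

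Ratios are log2 of IUGR over control after background correction and within-array normalization, and levels are log2 normalized intensities of each channel. Levels of different probes cannot be set against each other. The arrays differed in raw brightness. The median raw log2 ratio of IUGR over control was 1.62 on array 1, and -1.34, -2.25 and -1.43 on arrays 2, 3 and 4. IUGR was in Cy5 on the first pair of arrays and in Cy3 on the second. Between 61.8% and 74.0% of spots were well above background in the IUGR channels and between 67.3% and 77.2% in the control channels. After normalization the ratios of array 1 correlated across probes at r = 0.12, -0.23 and -0.30 with arrays 2, 3 and 4, while those 3 correlated with each other at 0.37 to 0.64 (probes are not independent replicates). Islet identity was checked with marker lists: all 9 beta cell, 4 alpha cell and 4 delta, PP and epsilon cell markers on the arrays were detected, and so were all 7 acinar and 10 endothelial markers.

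No probe passed an adjusted p of 0.05 in the limma fit across all probes with Benjamini-Hochberg adjustment. The smallest adjusted p over all probes was 0.340, so the called share was 0% and none of the 13 hypoxia probes was called. That smallest value was shared by 25% of all probes and by 5 of the 13. At an unadjusted p under 0.05 there were 3077 probes, 13.4% of those tested, and 5 of the 13 hypoxia probes. Of all probes 7.12% were on the higher side, and 1 hypoxia probe was, for Egln1. On the lower side were 6.28% of all probes and 4 hypoxia probes, for Hif1a, Egln3, Slc2a1 and P4ha1. The count of 5 became 10 without array 1, 1 without array 2, 0 without array 3 and 3 without array 4, while the count over all probes became 7075, 1008, 502 and 2507. With outlying local backgrounds left out or used as measured the count was 1, against 1611 and 1621 over all probes. With the scanner's processed signals or median centring it was 2, against 2151 and 1346. The 13 ratios had a median of 0.15 (-0.21 when arrays were centred on their median in place of loess), against 0.019 over all probes (-0.013), and a median absolute value of 0.38, against 0.14. The ratio was above 0 for 7 of the 13 (54% of all probes) and below 0 for 6 (46%).

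**Figure D1:**
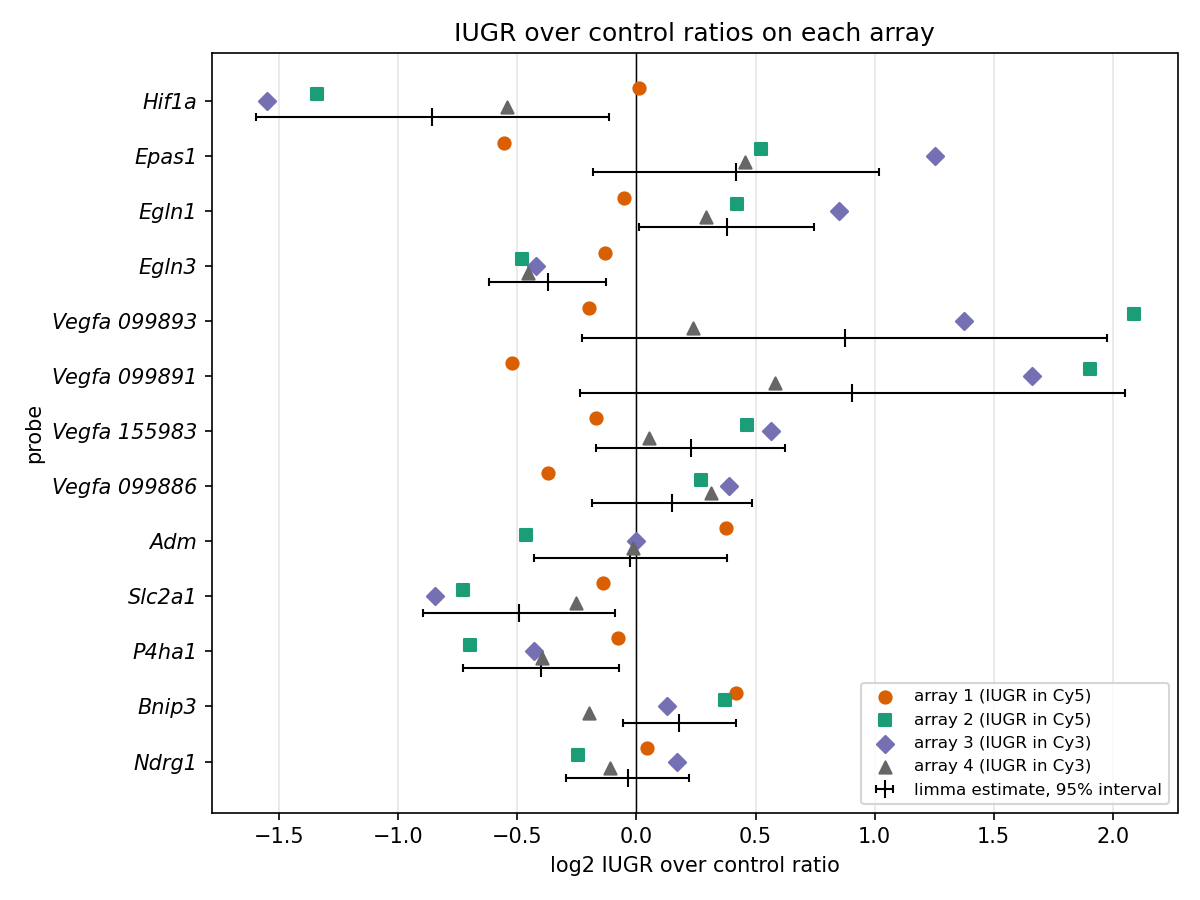
Log2 IUGR over control ratios of the 13 probes (horizontal axis), one row per probe, with a symbol for each of the 4 arrays and a black bar for the limma estimate with its 95% interval. Egln3, Slc2a1 and P4ha1 are below 0 on all 4 arrays, and array 1 lies on the other side of 0 from the other arrays in 8 rows.

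The ratio had the same sign on all 4 arrays for Egln3, Slc2a1 and P4ha1. All 3 were below 0, as were 9.58% of all probes, whereas no hypoxia probe was above 0 throughout, as 11.4% of all probes were. In either direction the background was 21%. The levels of the IUGR and control samples did not overlap for Egln3 and P4ha1, both lower in IUGR. The background for that was 1.64% of all probes lower and 1.4% higher in IUGR, or 3.03% together. For 8 of the 13 probes array 1 had one sign and arrays 2 to 4 the other, which 31.9% of all probes did. These 8 include every Vegfa probe, so they are not separate genes. They also include Hif1a, at 0.012 on array 1, and Adm, at -0.00010 and -0.015 on arrays 3 and 4, whose signs there rest on values near 0. No hypoxia probe had opposite signs in the 2 dye orientations, against 15.8% of all probes. None had a dye difference at an unadjusted p under 0.05, against 8.66%, and 0% of all probes had one at an adjusted p of 0.05.

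Marker lists of cells and states lay on both sides of 0, and some had ratios below 0, as Hif1a, Egln3, Slc2a1 and P4ha1 did. Of all probes 54% were above 0 and 46% below. All 5 T and NK cell markers were below 0, each at an unadjusted p under 0.05, with medians of 0.084, -0.16, -1.34 and -0.83 on arrays 1 to 4. Their summed intensity was between 779 and 972 in IUGR samples and between 982 and 4837 in control samples. Cd2 was well above background in no IUGR channel and in 3 control channels, and Cd3e in 1 and 3. Both therefore entered the test through the control group alone, where they were higher, so their place in this count is partly set by the filter. All 7 immediate early genes were below 0, with medians of -0.13, -0.15, -0.98 and -0.63, and so were all 4 delta, PP and epsilon cell markers, with medians of -0.18, -0.16, -1.03 and -0.58. Of the 5 duct markers 4 were below 0, with medians of -0.035, -0.42, -0.28 and -0.26. So were 3 of the 4 alpha cell markers. Other lists lay mostly above 0. All 4 red blood cell markers did, each at an unadjusted p under 0.05, with medians of -0.29, 0.30, 1.35 and 1.08. All 7 acinar markers did, with medians of 0.40, 0.17, 1.67 and -0.16. So did all 9 beta cell, 9 of 10 endothelial, 4 of 6 macrophage and 4 of 7 fibroblast and stellate cell markers. Above 0 on all 4 arrays were 1 beta cell, 1 endothelial, 3 macrophage and 0 fibroblast and stellate cell markers. The beta cell markers Ins1, Ins2 and Iapp were above 0 on arrays 1 and 2 and below 0 on arrays 3 and 4. Their signs were thus opposite in the 2 dye orientations. Each marker in these lists was read at its brightest tested probe. Other probes lay on the opposite side of 0 for Egr1 (0.39), Ppy (0.047), Irx2 (0.062) and Col1a1 (-0.27). For Vwf they were at 0.058 and -0.34, against -0.31 at its brightest. Those of Cftr, Csf1r, Hbb and Hba-a2 lay on the same side. The part of any of these cells and states in the hypoxia ratios, the 4 lower ones included, was not tested.

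The alpha subunit genes had ratios on opposite sides of 0. The Hif1a probe had the largest difference below 0 of the 13, with 7.42, 6.91, 7.32 and 7.37 in IUGR replicates 1 to 4, against 6.90, 8.76, 8.93 and 7.86 in control replicates 1 to 4. The IUGR samples lay close together (SD 0.23) and the controls were spread widely (SD 0.93): control replicate 1 was the lowest of all 8, and the other 3 controls were above every IUGR sample. The ratios were 0.012, -1.34, -1.55 and -0.55 on arrays 1 to 4. The limma estimate was -0.86 ± 0.28 (SE, 4 arrays), or 0.552-fold, with a 95% interval from -1.60 to -0.11 and an adjusted p of 0.340. Only 1.11% of all probes had a ratio of larger size. This probe was dim. Its signal was 1.57 to 4.18 times the local background in the IUGR channels and 1.99 to 27.6 times in the control channels, and it was not well above background in the IUGR channel of array 2. Its estimate lay between -1.74, with the scanner's processed signals, and -0.52, without array 2.

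Epas1 encodes the HIF-2 alpha subunit, which is prominent in endothelial cells. Its probe, on chromosome 6 (chr6:10295169-10295420, bridging an intron), had 9.42, 8.75, 9.45 and 10.16 in IUGR replicates 1 to 4, against 9.30, 8.89, 8.91 and 8.999 in control replicates 1 to 4. The IUGR samples included both the highest and the lowest of the 8, so the groups overlapped. The ratios on arrays 1 to 4 were -0.55, 0.52, 1.25 and 0.46, and the estimate was 0.42 ± 0.23 (adjusted p = 0.366). It was 0.061 with the brightness of the channels as a covariate in place of the dye coefficient. Without arrays 1, 2, 3 and 4 it was 0.69, 0.15, 0.22 and 0.62. The 10 endothelial markers had medians of -0.43, 0.043, 0.62 and 0.48 on the same arrays, with 9 of 10 ratios above 0 and a median of 0.14. Their summed intensity was between 83716 and 110805 in IUGR samples and between 63854 and 116548 in control samples, and every marker was well above background in all channels. The part of endothelial content in the Epas1 ratio was not tested. In RNA from whole islets, fewer cells of a type and less RNA per cell cannot be told apart.

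The 8 tested genes of the HIF subunits and their partners had 7 ratios above 0 and a median of 0.073, with Hif1a the only one below 0. Of all probes 54% were above 0. Besides the members, the smallest p-values were those of the coactivator Crebbp, at 0.21 ± 0.10, and of the shared partner Arnt, at 0.15 ± 0.10. Arnt had 0.018, 0.28, 0.31 and 0.0021 on arrays 1 to 4, and its adjusted p was 0.414.

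The prolyl hydroxylase genes also had ratios on both sides of 0. Egln1 encodes the main oxygen sensor of the family. Its probe (chr19:55117747-55117806, minus strand) had 8.59, 8.94, 8.39 and 8.79 in IUGR replicates 1 to 4, against 8.99, 8.17, 7.95 and 8.10 in control replicates 1 to 4. Control replicate 1 was the highest of the 8 samples and the other 3 controls were below every IUGR sample. The ratios were -0.052, 0.42, 0.85 and 0.29 on arrays 1 to 4, and the estimate was 0.38 ± 0.14 (95% interval 0.013 to 0.74, adjusted p = 0.340). It was 0.21 with channel brightness in place of the dye coefficient, and 0.20 with outlying backgrounds left out or as measured.

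Egln3 encodes a hydroxylase whose own gene is a HIF target. Its probe (chr6:74451958-74452017, minus strand) had 7.84, 7.90, 7.78 and 7.97 in IUGR replicates 1 to 4, against 8.03, 8.32, 8.39 and 8.23 in control replicates 1 to 4. Every IUGR sample was below every control sample. On arrays 1 to 4 its ratios were -0.13, -0.48, -0.42 and -0.46, for an estimate of -0.37 ± 0.09 (0.772-fold, 95% interval -0.62 to -0.13). Its unadjusted p of 0.011 was the smallest of the 13 probes, and its adjusted p was 0.340. Its signal was 2.28 to 8.73 times the local background in the IUGR channels and 4.84 to 23.9 times in the control channels. The estimate lay between -0.61, with the scanner's processed signals, and -0.28, with outlying backgrounds left out or as measured.

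In the list of hydroxylation and degradation genes, 12 were tested and 7 were above 0, against 54% of all probes. The median was 0.049. None was called. At an unadjusted p under 0.05 were Egln2, Os9 and Egln1 on the higher side and Egln3 on the lower side. The shares of all probes were 7.12% and 6.28%. Egln2, the third prolyl hydroxylase gene of the family, had 0.030, 1.14, 1.12 and 0.36 on arrays 1 to 4 and an estimate of 0.67 ± 0.23. Os9, whose product has been reported to bind prolyl hydroxylases and HIF-1 alpha, had -0.068, 0.72, 0.90 and 0.35, with 0.48 ± 0.17. Both adjusted p-values were 0.340. Egln1 and Egln2 had estimates above 0 and Egln3 one below 0, and the difference between them was not tested.

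**Figure D2:**
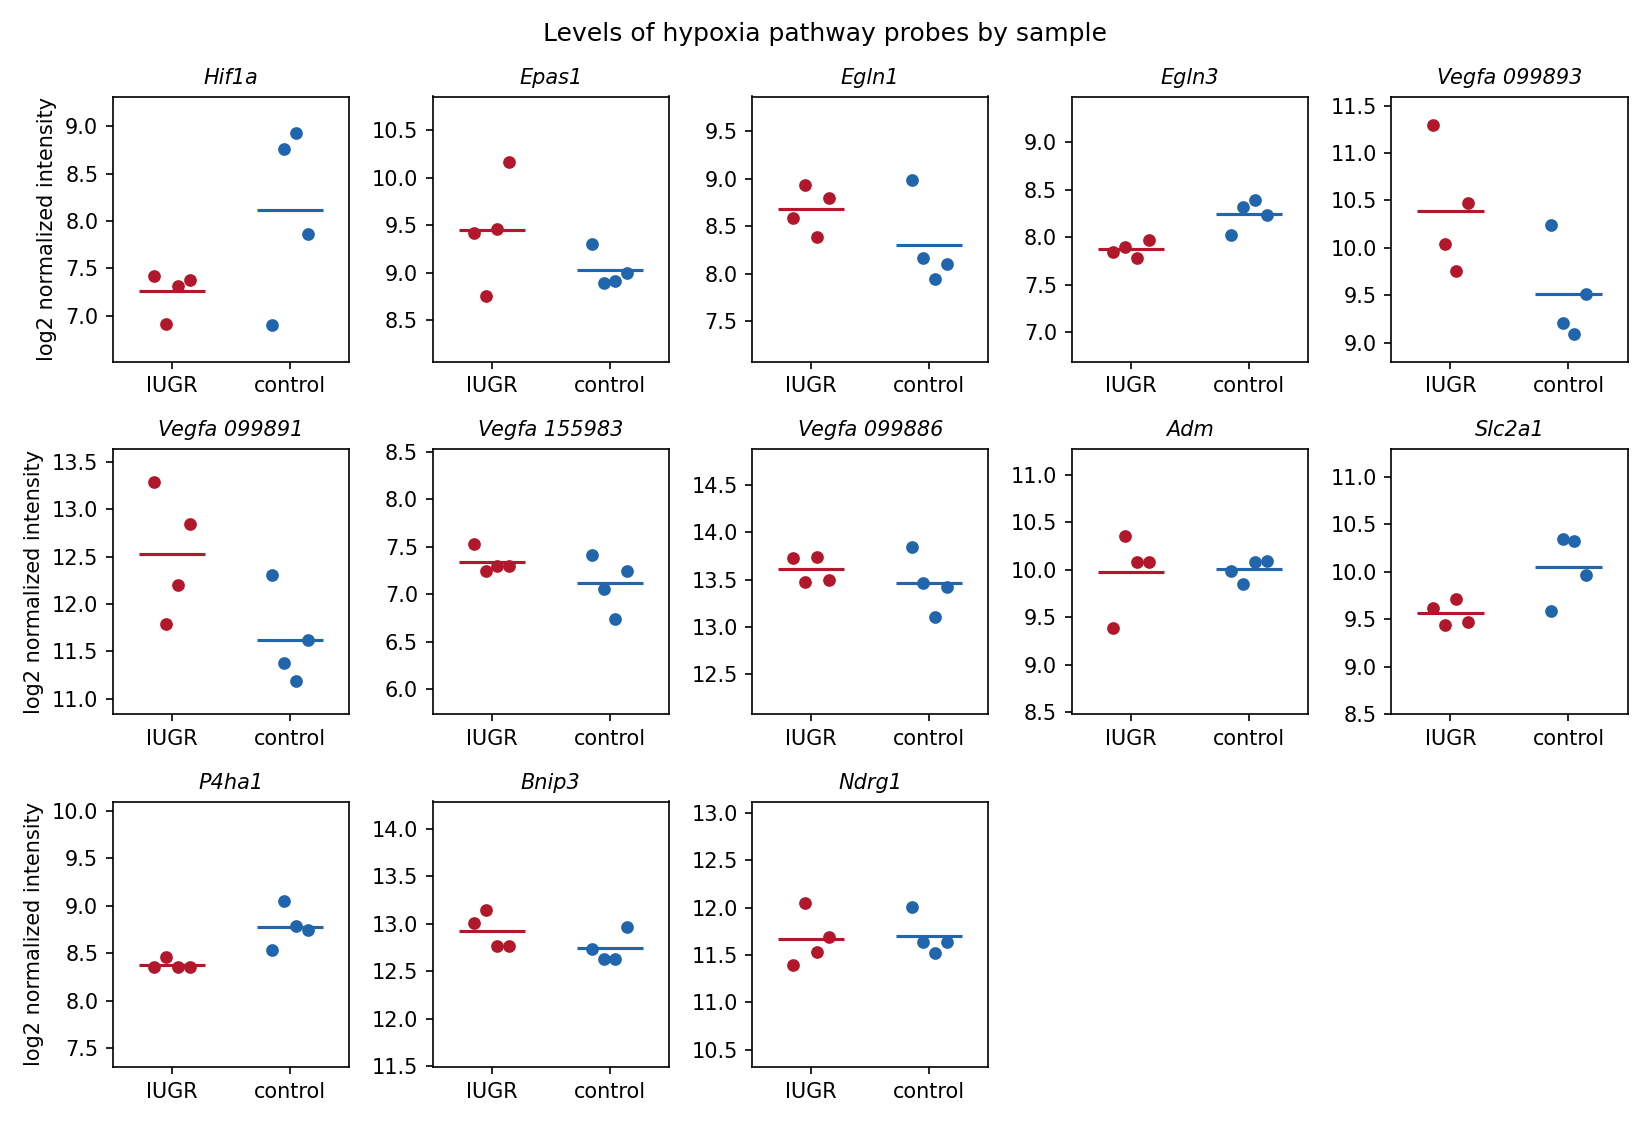
Log2 normalized intensity of each of the 13 probes, one panel per probe, with IUGR samples left and control samples right, points for replicates 1 to 4 in order and a line at the mean. The groups are apart in the Egln3 and P4ha1 panels, and the first control point is the lowest of the controls for Hif1a, Egln3, Slc2a1 and P4ha1 and the highest for Epas1, Egln1, Ndrg1 and all 4 Vegfa probes.

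Among the target genes, Vegfa had the largest ratios above 0, but at only 2 of its 4 probes. Vegfa encodes VEGF-A, the growth factor that keeps endothelial cells alive and makes capillaries permeable. The most upstream probe, A_64_P099893, had 11.30, 10.04, 9.75 and 10.47 in IUGR replicates 1 to 4, against 10.24, 9.21, 9.10 and 9.51 in control replicates 1 to 4. The next probe, A_64_P099891, had 13.29, 11.79, 12.20 and 12.85 in IUGR, against 12.31, 11.38, 11.18 and 11.62 in control. At both, 3 of the controls were below every IUGR sample and control replicate 1 lay inside the IUGR range.

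The ratios of A_64_P099893 on arrays 1 to 4 were -0.20, 2.09, 1.38 and 0.24, with an estimate of 0.88 ± 0.42 (1.84-fold, 95% interval -0.23 to 1.98). Those of A_64_P099891 were -0.52, 1.90, 1.66 and 0.58, with 0.91 ± 0.44 (1.87-fold, -0.24 to 2.05). Both adjusted p-values were 0.342. Arrays 2 and 3 carried most of each estimate: it was 0.30 for both probes without array 2, and 0.59 and 0.64 without array 3. In the fit with channel brightness in place of the dye coefficient they were 0.52 and 0.43.

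The 2 downstream probes had smaller ratios. A_64_P155983 had 7.53, 7.24, 7.30 and 7.30 in IUGR replicates 1 to 4, against 7.41, 7.06, 6.74 and 7.25 in control replicates 1 to 4, with an estimate of 0.23 ± 0.15 (adjusted p = 0.423). That estimate was 0.39, 0.07, 0.10 and 0.36 without arrays 1, 2, 3 and 4. It was 0.38 with a normexp offset of 0, and 0.57 with the scanner's processed signals. A_64_P155983 was dim, at 2.15 to 4.40 times the local background in the IUGR channels and 3.83 to 5.37 times in the control channels. The probe closest to the end of the gene, A_64_P099886 (chr9:10535933-10535992), had 13.73, 13.47, 13.74 and 13.50 in IUGR, against 13.85, 13.46, 13.11 and 13.42 in control, with 0.15 ± 0.13 (adjusted p = 0.516). Here control replicate 1 was the highest of all 8 samples and the other 3 controls were below every IUGR sample. The sign of A_64_P099886 turned under 3 of the alternative settings, to -0.21 with median centring, -0.024 with the brightness covariate and -0.010 without array 2, while the upstream pair stayed above 0 in all 17 they could be fitted in.

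The upstream pair differed by -0.031 ± 0.33 (SD, 4 arrays) in ratio. An upstream ratio exceeded a downstream one by 0.65 to 0.76 on average, on 3 of the 4 arrays in each of the 4 combinations. Over the 6 pairs of probes, an exact two-sided sign-flip test gave p = 0.25 for each of these 4, adjusted to 0.375, and with 4 arrays no pair could go below 0.125. The dim signal of the downstream probe A_64_P155983 limits its ratio. With the scanner's processed signals its estimate was 0.57, against 0.89 for A_64_P099891 and 0.88 for A_64_P099893, while that of A_64_P099886 was 0.096. Vegfa RNA is known to be spliced into several isoforms that differ toward the end of the coding region. Which isoforms each probe reads was not analysed here.

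**Figure D3:**
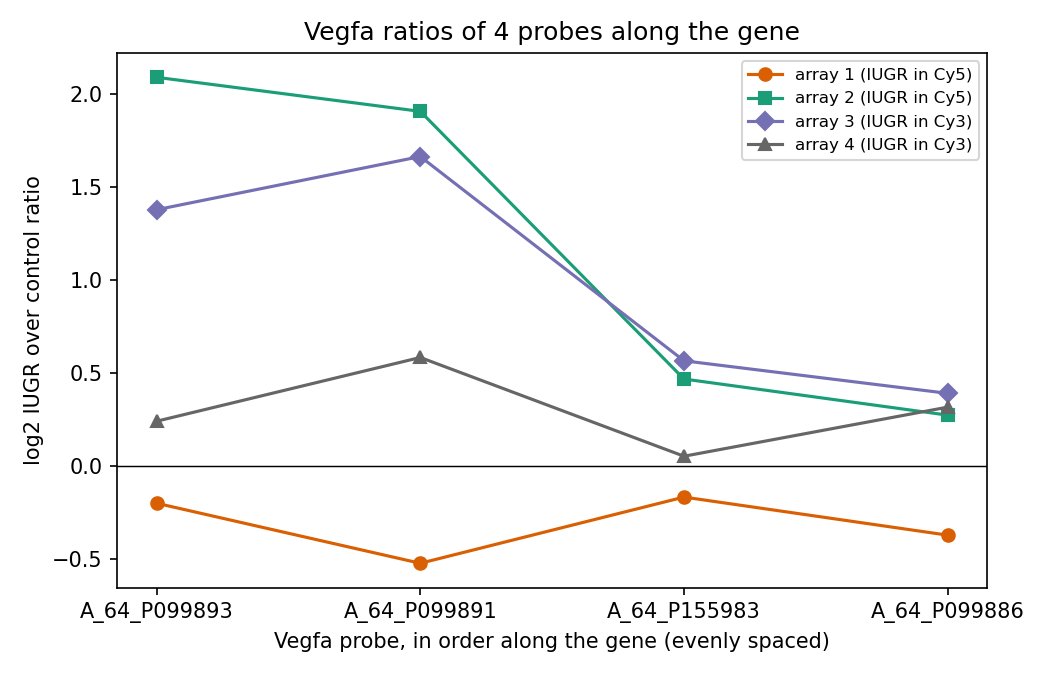
Log2 IUGR over control ratio of the 4 Vegfa probes (vertical axis) in their order along the gene, evenly spaced (horizontal axis), one line per array. On arrays 2 and 3 the upstream pair lies between 1.38 and 2.09 and the downstream pair between 0.27 and 0.56, and on array 1 all 4 are below 0.

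The VEGF receptors and other VEGF ligands were read beside Vegfa. Of 10 genes tested, 8 had ratios above 0, against 54% of all probes. The median was 0.12, and none was called. The co-receptor gene Nrp1 had -0.14, 1.22, 1.46 and 0.75 on arrays 1 to 4 and, like the Vegfa probes, was below 0 on array 1 alone, with an estimate of 0.82 ± 0.26 (unadjusted p = 0.027, adjusted p = 0.340). The ligand gene Vegfb had 0.43 ± 0.26, with 1.63 on array 3 and between -0.00020 and 0.096 on the others. Only 2 IUGR samples and 1 control sample gave it a signal well above background, so it entered the test through the IUGR group alone and its ratio is mostly taken between signals near background. The 9 beta cell markers had medians of 0.20, 1.06, 0.44 and 0.18 on the same arrays. Of these markers, Ins1, Ins2 and Iapp were below 0 on arrays 3 and 4. The endothelial markers had the medians given above for Epas1. The part of either cell type in the Vegfa and Nrp1 ratios was not tested.

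Adm encodes adrenomedullin, a vessel-dilating peptide that hypoxia induces in many tissues. It was read by 10 spots (chr1:168382310-168382369), so its ratio on each array was precise, with an SD between spots of 0.022 to 0.043. The levels were 9.39, 10.36, 10.08 and 10.08 in IUGR replicates 1 to 4, against 9.99, 9.85, 10.08 and 10.096 in control replicates 1 to 4. The ratios were 0.38, -0.46, -0.00010 and -0.015 on arrays 1 to 4. They differed between arrays by far more than between spots, and their mean was near 0, at -0.03 ± 0.15 (95% interval -0.43 to 0.38, adjusted p = 0.934). Its sign turned with the brightness covariate (0.088) and without array 2 (0.18).

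The adrenomedullin receptor is made of Calcrl and a partner of the Ramp family. Of the 4 genes, 3 had ratios above 0 (median 0.14), against 54% of all probes. Ramp1, whose product steers Calcrl toward the related peptide CGRP, was below 0 on all 4 arrays, at -0.63, -0.75, -0.16 and -0.55, with -0.52 ± 0.10 (unadjusted p = 0.0038, adjusted p = 0.340) and -0.48 at its other probe. Ramp3, whose product makes Calcrl an adrenomedullin receptor, was above 0 on all 4, with 0.33 ± 0.10 (unadjusted p = 0.025, adjusted p = 0.340).

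Slc2a1 encodes the glucose transporter that most cells use for basal uptake and that HIF induces, whereas rodent beta cells rely mainly on Slc2a2. Its probe, also on 10 spots (chr5:139718779-139718838), had 9.62, 9.44, 9.71 and 9.47 in IUGR replicates 1 to 4, against 9.58, 10.35, 10.32 and 9.97 in control replicates 1 to 4. Control replicate 1 lay among the IUGR samples and the other 3 controls were above all of them. The ratios on arrays 1 to 4 were -0.14, -0.73, -0.85 and -0.26, each with an SD between spots of 0.029 to 0.059. The estimate was -0.49 ± 0.15 (0.710-fold, 95% interval -0.90 to -0.09, unadjusted p = 0.026, adjusted p = 0.340), and it stayed between -0.82 and -0.35 in all 18 alternative settings.

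P4ha1 encodes the catalytic subunit of the collagen prolyl 4-hydroxylase, an enzyme of collagen folding that is distinct from the Egln sensors. Its levels were 8.35, 8.46, 8.35 and 8.36 in IUGR replicates 1 to 4, against 8.53, 9.05, 8.79 and 8.75 in control replicates 1 to 4. All IUGR samples were below all controls and lay within a narrow range. The ratios were -0.08, -0.70, -0.43 and -0.40 on arrays 1 to 4, and the estimate was -0.40 ± 0.12 (0.757-fold, 95% interval -0.73 to -0.07, unadjusted p = 0.026, adjusted p = 0.340). The 4 subunit genes tested had 2 ratios above 0 and 2 below, and the smallest p-values beside P4ha1 were those of the related catalytic subunits P4ha3, at -0.16 ± 0.10, and P4ha2, at 0.13 ± 0.10. Only 1 IUGR sample, against 3 control samples, gave P4ha3 a signal well above background, so it entered the test through the control group alone.

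Bnip3 encodes a mitochondrial protein that promotes the removal of mitochondria in low oxygen. Its probe (chr1:198683030-198683089, minus strand) was bright, with 13.005, 13.15, 12.77 and 12.76 in IUGR replicates 1 to 4, against 12.73, 12.63, 12.63 and 12.97 in control replicates 1 to 4. The groups overlapped through control replicate 4. The ratios were 0.42, 0.37, 0.13 and -0.20 on arrays 1 to 4, with 0.18 ± 0.09 (adjusted p = 0.350) and -0.17 under median centring.

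Ndrg1 encodes a stress-responsive protein that hypoxia strongly induces in many cell lines. It had 11.39, 12.05, 11.53 and 11.69 in IUGR replicates 1 to 4, against 12.00, 11.64, 11.52 and 11.64 in control replicates 1 to 4 (chr7:104302898-104302957, minus strand). The IUGR samples held both the highest and the lowest value. The estimate was -0.04 ± 0.10 (95% interval -0.29 to 0.22, adjusted p = 0.847), and it turned to 0.037 without array 2 and 0.034 without array 4. The 6 Ndrg and Bnip3 family genes had a median of 0.046 with 4 above 0, against 54% of all probes. The smallest p-values beside the members were those of Ndrg4, at 0.23 ± 0.12, and Ndrg3, at 0.08 ± 0.08.

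Other known HIF targets gave ratios on both sides of 0. Of 35 genes on the arrays 32 were tested, 15 were above 0 and 17 below, and the median was -0.0036, against 0.019 over all probes. None was called. The smallest p-values were those of Angptl4, a secreted inhibitor of lipoprotein lipase, and Edn1, the vessel-constricting peptide endothelin. Angptl4 had -0.10, -0.35, -0.73 and -0.77 on arrays 1 to 4 and an estimate of -0.49 ± 0.08 (unadjusted p = 0.0026, adjusted p = 0.340). Edn1 had -0.21, -0.85, -0.83 and -0.51, with -0.60 ± 0.14 (unadjusted p = 0.0084, adjusted p = 0.340).

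At an unadjusted p under 0.05 there were 4 of these 32 targets on the higher side and 5 on the lower. The shares of all probes were 7.12% and 6.28%. The remaining genes of these groups are named after their values were seen. The lactate dehydrogenase gene Ldha was at -0.35 ± 0.08 and below 0 on all 4 arrays, with the transcription factor gene Bhlhe40 at -0.25 ± 0.08 and the chemokine receptor gene Cxcr4 at -0.33 ± 0.11. On the higher side were Bhlhe41, the close relative of Bhlhe40, at 0.81 ± 0.25, and the glycolytic enzyme gene Aldoa at 0.62 ± 0.21. The lysyl oxidase relative Loxl2, at 0.25 ± 0.08, and the glycolysis regulator Pfkfb3, at 0.25 ± 0.09, completed that group. The glycolytic genes Aldoa and Ldha had estimates on opposite sides of 0. When the arrays were centred on their median in place of loess, all 7 list medians were below 0, at -0.020 for the HIF subunits, -0.25 for hydroxylation and degradation, -0.28 for the other targets, -0.05 for the VEGF genes, -0.04 for the adrenomedullin receptor, -0.23 for the prolyl 4-hydroxylase subunits and -0.31 for the Ndrg and Bnip3 family.

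The promoters of the 3 genes that were below 0 on all 4 arrays are shown. They were searched for ACGTG, a form of the core letters of the HIF binding element. The form GCGTG was not searched and is not marked. RefSeq promoters (assembly GRCr8, 250 bases before to 50 after the gene start) matched 9 of the 10 genes, with 10 promoters, since Vegfa had 2. The letters searched were ACGTG on either strand, which reads CACGT on the strand printed when the match is on the other one. They stood in 19.3% of all promoters of that length (6444 of 33469). They stood in 5 of the 10 promoters of the hypoxia genes, those of Slc2a1, Hif1a, Egln1, P4ha1 and Bnip3, and in Hif1a and Bnip3 the matches on the 2 strands overlapped as CACGTG. Of these 5 genes, Slc2a1, Hif1a and P4ha1 had estimates below 0 and Egln1 and Bnip3 above 0. No match was in this window for Vegfa, Epas1, Egln3 and Adm, and the pattern describes letters and not binding. Capitals mark the match, which begins at base -51 from the gene start in Slc2a1 (chr5:138002272-138002571, plus strand) and at base 12 in P4ha1 (chr20:27844796-27845095, plus strand). Egln3 (chr6:77410966-77411265, minus strand) has none.
Slc2a1 promoter: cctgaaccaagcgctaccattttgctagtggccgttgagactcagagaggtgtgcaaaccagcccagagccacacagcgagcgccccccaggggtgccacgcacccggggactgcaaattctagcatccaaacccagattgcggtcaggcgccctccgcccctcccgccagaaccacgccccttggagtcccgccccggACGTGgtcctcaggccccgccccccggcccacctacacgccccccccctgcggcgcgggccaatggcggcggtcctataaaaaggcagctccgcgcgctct
P4ha1 promoter: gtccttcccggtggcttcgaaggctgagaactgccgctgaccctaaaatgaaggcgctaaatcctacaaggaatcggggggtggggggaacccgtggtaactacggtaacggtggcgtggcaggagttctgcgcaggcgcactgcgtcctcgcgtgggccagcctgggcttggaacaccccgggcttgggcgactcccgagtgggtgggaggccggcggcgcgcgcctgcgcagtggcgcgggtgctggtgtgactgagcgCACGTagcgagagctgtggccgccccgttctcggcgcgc
Egln3 promoter: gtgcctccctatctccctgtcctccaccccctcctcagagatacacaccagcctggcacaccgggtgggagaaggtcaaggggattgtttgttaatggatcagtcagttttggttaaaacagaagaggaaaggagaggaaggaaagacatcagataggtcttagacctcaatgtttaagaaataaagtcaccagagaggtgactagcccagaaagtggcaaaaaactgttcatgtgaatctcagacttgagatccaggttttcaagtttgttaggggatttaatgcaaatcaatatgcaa

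**Figure D4:**
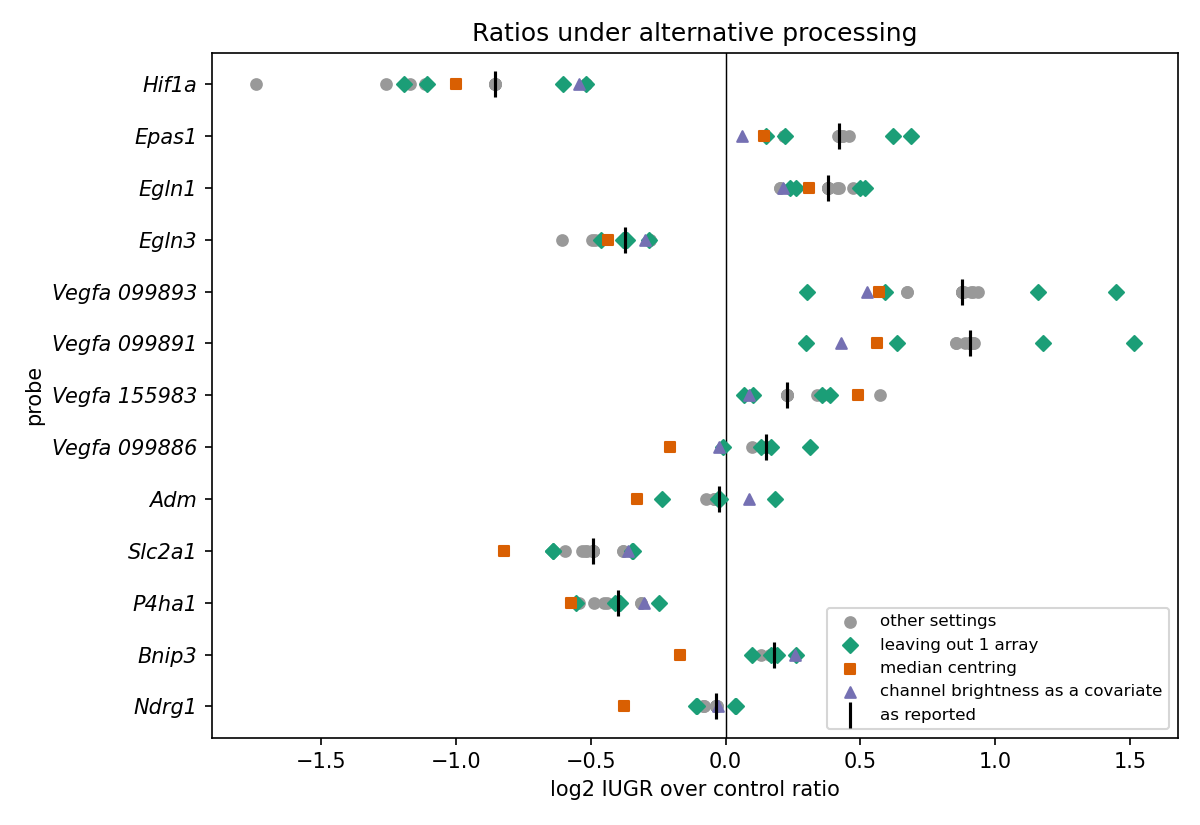
Log2 IUGR over control ratio (horizontal axis) of each of the 13 probes (rows) in the limma fit described and under each alternative setting, with the settings that leave out an array drawn apart. Hif1a, Egln3, Slc2a1 and P4ha1 stay below 0 and Egln1, Epas1 and 3 of the Vegfa probes above 0 in all of them, while Bnip3, Adm, Ndrg1 and Vegfa A_64_P099886 cross it.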

How the data were processed

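Islet total RNA was amplified as cDNA, carried Cy3 or Cy5 dye and was hybridised to 4 Agilent arrays of design 28282. Per the file headers, signals were extracted with Feature Extraction 10.10.1.1, and the deposited mean signals, background medians and processed signals are pixel intensity. The deposited value table holds log2 ratios of Cy5 over Cy3 whose normalization is not stated. Its row identifiers matched the row number of the scanner tables, where it correlated at r = 0.988 to 0.998 across probes with loess ratios without background subtraction, and its medians per array were 0.008, -0.026, -0.014 and -0.029. The submitters' processing notes name limma, and the version and settings are not given in the sources used here.

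Signals were corrected with normexp (offset 50) and loess-normalized (limma 3.58.1 and statmod 1.5.0 under R 4.3.3), with control spots at weight 0. Feature outlier spots were dropped, and an outlying local background was replaced by the median of its channel (263, 50, 145 and 55 spots on arrays 1 to 4). No spot was saturated. Spots of a probe were averaged. A probe was tested if it was present on all 4 arrays and well above background in at least 2 IUGR or 2 control channels. In limma, IUGR over control was fitted beside a dye coefficient, leaving 2 residual and 2.74 prior degrees of freedom. An estimate ± is its moderated SE, and the number of arrays limits the precision. Levels are channel intensities after loess and Aquantile scaling. All probes of the 10 genes are named, with the 2 smallest p-values among the other genes of each list. A gene of a list is represented by its brightest probe. The genes, lists and tests were chosen with earlier results of these data known. The sequence and position of 1 probe are not reported here. The alternatives tried were background, normalization, filter, dye and brightness terms, array weights, gene level, the deposited table, a replicate block and leaving out each array. The brightness covariate took the place of the dye coefficient and was not added to it. Its estimates hold for equal brightness of the channels, which none of the arrays had.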

Additional observations from a re-analysis of the deposited data

Results flagged for a closer look

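Of 39 groups of 4 values checked for a value far from the others (Dixon's test, where chance marks about 1 in 20 groups), 3 held one. The Vegfa probe A_64_P099886 had a ratio of -0.37 on array 1, while the other arrays gave 0.27 to 0.39. Egln3 had -0.13 on array 1, while the others gave -0.48 to -0.42. The IUGR level of P4ha1 was 8.46 in replicate 2, while the other IUGR samples lay at 8.35 to 8.36. Both ratios come from array 1, the array whose IUGR channel was brighter than its control channel. With channel brightness as a covariate in place of the dye coefficient, the estimates were -0.024 for the Vegfa probe and -0.30 for Egln3.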

How the results depend on the processing

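Of the 13 probes, 9 kept the sign of their estimate in every alternative setting that could be run. The number of called probes was 0 in every setting but median centring (15, all lower in IUGR) and the replicate block (2487, of which 1508 higher and 979 lower in IUGR). The median ratio of the hypoxia probes, 0.15, was -0.21 under median centring and -0.031 at gene level, where Vegfa has 1 probe. The signs that turned were those of Vegfa A_64_P099886 (-0.21 with median centring, -0.024 with channel brightness as a covariate, -0.010 without array 2), Bnip3 (-0.17 with median centring), Adm (0.088 with brightness, 0.18 without array 2) and Ndrg1 (0.037 without array 2, 0.034 without array 4). Leaving out 1 array moved A_64_P099886 between -0.010 and 0.31, Adm between -0.24 and 0.18 and Ndrg1 between -0.11 and 0.037. It moved Hif1a between -1.19 and -0.52, Slc2a1 between -0.64 and -0.35, P4ha1 between -0.56 and -0.25, Egln3 between -0.46 and -0.29, Egln1 between 0.24 and 0.52, Epas1 between 0.15 and 0.69, Bnip3 between 0.098 and 0.26, and the upstream Vegfa pair between 0.30 and 1.51. With the brightness covariate the estimates were -0.54 for Hif1a, -0.36 for Slc2a1, -0.30 for P4ha1, 0.21 for Egln1 and 0.26 for Bnip3. The count of all probes at an unadjusted p under 0.05, 3077, was 1346 with median centring, 1611 and 1621 with outlying backgrounds left out or as measured, 1431 with the brightness covariate and between 502 and 7075 with 1 array left out. Same-numbered IUGR and control samples deviated together at r = 0.19, -0.29, 0.34 and 0.05. Samples that shared an array did so at 0.17, 0.59, 0.40 and 0.51 for IUGR replicates 1 to 4. Same-numbered samples never shared an array, so these values cannot settle whether the numbers pair the samples. A channel fit with the replicate block gave adjusted p-values of 0.0381 for Egln3, 0.0427 for Epas1, 0.0339 for P4ha1, 0.0449 for Slc2a1, and 0.0182 and 0.0190 for the upstream Vegfa pair. By its construction that fit leaves no residual in the 4 within-array ratios. Its error therefore comes from the spread of each probe's average intensity between arrays after scaling (intraspot correlation 0.51). Hif1a is absent under the stricter filter. Its dim signal limits its ratio.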
